A study of Homo sapiens with 4 samples.

Results

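The miR-181 family was measured as 4 miRNA names, miR-181a-5p, miR-181b-5p, miR-181c-5p and miR-181d-5p, out of 746 names in a miRNA sequencing table of U-251 cells. Members were every name of the table that follows the pattern of miR-181 with the letters a to d, whatever its number or arm. U-251 is a long-established line of human glioblastoma cells. The 4 libraries were biological replicates of 1 group, labelled as wild type cells treated with the vehicle DMSO, and the cells were not irradiated. With 1 group no condition could be compared, so members were compared with each other and with other families inside each library. miRNAs of glioma or neural cells fixed as markers (miR-21, miR-9, miR-10b, miR-125b, miR-221 and miR-222) summed to between 9.08% and 13.7% of the counts of a library. Most of that sum was miR-125b-5p, miR-21-5p and miR-221-5p, with 1956787.5, 1554391 and 1202715 counts over the 4 libraries. Fewer counts fell on miR-9-5p (706717), miR-222-5p (131103) and miR-10b-5p (22076). Of the neuron markers, the name miR-124-5p had no value in any library, and miR-129-5p had 510.5 counts summed over the 4 libraries. A missing value is not read here as absence of the miRNA.

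A miRNA is cut from a hairpin, and the strand from its 5′ or 3′ side (5p or 3p) guides an Argonaute protein to messenger RNAs that pair with the seed, bases 2 to 8 counted from 1 at the 5′ end of the miRNA. miR-181 miRNAs are known for their abundance in developing lymphocytes, where miR-181a tunes the sensitivity of the T cell receptor, and in brain. In glioma, members of the family have been described as tumour suppressors. Names that share a seed are expected to share many targets, whereas the bases behind the seed tell the members apart.

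The mature sequences are shown because few bases separate the names. They are given 5′ to 3′ from RefSeq (GRCh38.p14), with the seed in capitals, and all 4 names of the table matched.
miR-181a-5p: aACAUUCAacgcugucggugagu
miR-181b-5p: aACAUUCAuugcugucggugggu
miR-181c-5p: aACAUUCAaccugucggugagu
miR-181d-5p: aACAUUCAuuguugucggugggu
The seed was the same in all 4. Relative to miR-181a-5p, miR-181b-5p has the changes A9U, C10U and A21G. miR-181d-5p differs from miR-181b-5p by C12U alone. miR-181c-5p, 22 bases long against 23, is miR-181a-5p without the G at position 11. The names therefore form 2 pairs that are 1 base apart, a with c and b with d, while a and b are 3 bases apart. In RefSeq, 1 further human miRNA, miR-4262, has this seed (gACAUUCAgacuaccug), and it was not among the names of the table.

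The 4 names come from 6 hairpin genes on 3 chromosomes in the GENCODE annotation of GRCh38, the build (hg38) to which the authors mapped. On chromosome 1, MIR181A1 (198859044 to 198859153) and MIR181B1 (198858873 to 198858982) lie 62 bases apart, both on the minus strand and within an intron of the long non-coding gene MIR181A1HG. On chromosome 9, MIR181A2 (124692442 to 124692551) and MIR181B2 (124693710 to 124693798) lie 1159 bases apart on the plus strand, in an intron of MIR181A2HG and, on the opposite strand, of the nuclear receptor gene NR6A1. On chromosome 19, MIR181C (13874699 to 13874808) and MIR181D (13874875 to 13875011) lie 67 bases apart on the plus strand, in an intron of NANOS3. miR-181a-5p and miR-181b-5p are each made from 2 hairpin genes with the same mature sequence, so their counts cannot be divided between chromosomes 1 and 9. miR-181c-5p and miR-181d-5p have 1 hairpin gene each.

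The 3p strands differ even where hairpins share a 5p sequence, and they are shown for that reason. Bases 2 to 8 are again in capitals. The 6 hairpin genes have 6 distinct 3p sequences in RefSeq.
miR-181a-3p: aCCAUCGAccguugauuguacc
miR-181a-2-3p: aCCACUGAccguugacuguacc
miR-181b-3p: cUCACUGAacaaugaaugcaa
miR-181b-2-3p: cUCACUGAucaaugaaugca
miR-181c-3p: aACCAUCGaccguugaguggac
miR-181d-3p: cCACCGGGggaugaaugucac
miR-181a-3p and miR-181b-3p belong to the chromosome 1 hairpins, and miR-181a-2-3p and miR-181b-2-3p to those on chromosome 9. None of the 6 is a name in the table, which holds 538 names of the 5p strand and 18 of the 3p strand. No locus of miR-181a or miR-181b could be read from a strand of its own.

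miR-181a-5p and miR-181b-5p made up nearly all of the family. miR-181a-5p had counts of 33429.5, 50284, 45273 and 47369 in replicates 1 to 4. Replicate 1 was the lowest and the other libraries lay close together. miR-181b-5p had counts of 25664, 30606.5, 24941.5 and 27645.5 in the same order, with no library far from the rest. As a share of the library total, which lay between 12363104 and 13214969 counts, miR-181a-5p held 0.346% ± 0.0534 and miR-181b-5p 0.214% ± 0.0136 (SD, n = 4). The shares of the 2 names did not overlap, from 0.267% to 0.381% for miR-181a-5p against 0.202% to 0.232% for miR-181b-5p. Counting error was smaller than the gap between replicate 1 and the others for miR-181a-5p, as its share in replicate 1 had a 95% Wilson interval of 0.264% to 0.269% and that in replicate 2 one of 0.377% to 0.384%. The intervals of replicates 3 and 4 overlapped, as did those of replicates 1 and 3 for miR-181b-5p. Such intervals cover counting error only, since reads of amplified libraries need not be independent molecules.

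miR-181d-5p and miR-181c-5p were scarce and were not listed in every library. miR-181d-5p had 790 counts in replicate 2 and 645 in replicate 4, and its cells for replicates 1 and 3 were blank. miR-181c-5p had 96, 96 and 107 counts in replicates 2, 3 and 4, and its cell for replicate 1 was blank. In the libraries that listed them, miR-181d-5p held 0.00552% ± 0.000650 (SD, n = 2) and miR-181c-5p 0.000781% ± 5.65e-05 (SD, n = 3) of the counts. The 3 shares of miR-181c-5p, from 0.000726% to 0.000839%, had overlapping 95% Wilson intervals, with the lowest reaching from 0.000595% to 0.000887% and the highest from 0.000695% to 0.00101%. Its libraries could not be told apart at this depth.

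For single names, a blank cell was not read as a count of 0. No cell of the table holds 0, and 312 of the 621 names with a value lack one in at least 1 library. Blanks fall on abundant names too: miR-24-1-5p had 104745, 98131 and 97326 counts in replicates 2 to 4 and a blank in replicate 1, and miR-23a-5p had 96580 counts in replicate 2 and blanks elsewhere. Of the names whose lowest listed value was at least that of miR-181d-5p, 15 (9.68%) had a blank, itself included. The absence of miR-181d-5p from replicates 1 and 3 and of miR-181c-5p from replicate 1 therefore carries no level.

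**Figure D1:**
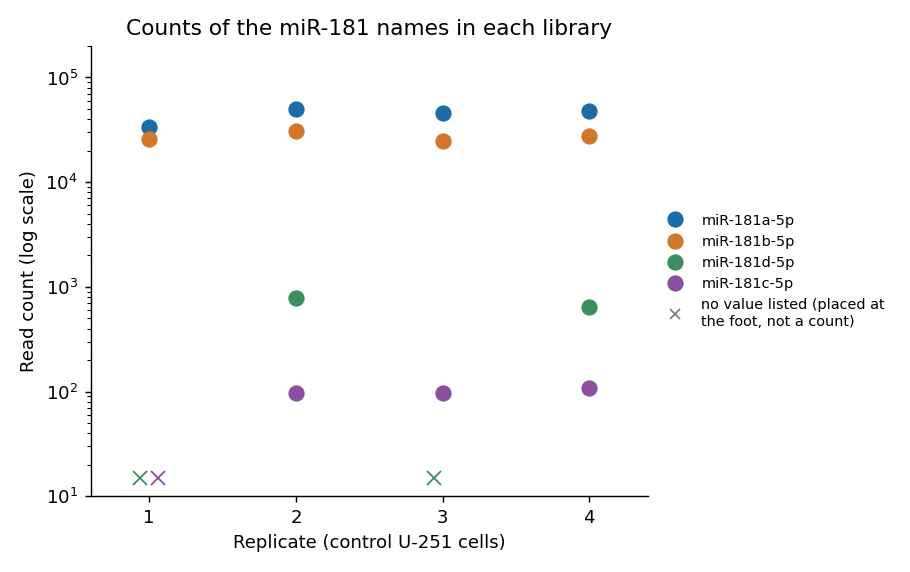
Read counts (log scale) of the 4 miR-181 names in each of the 4 control libraries, with crosses at the foot for names that have no value in a library. miR-181a-5p and miR-181b-5p lie between 24941.5 and 50284 in all 4 libraries, while miR-181d-5p, at 645 and 790, and miR-181c-5p, at 96 to 107, lie far below.

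By counts summed over the libraries the order was miR-181a-5p (176355.5), miR-181b-5p (108857.5), miR-181d-5p (1435) and miR-181c-5p (299). Among all names the first of these sums ranked 33 and the next 42. Within single libraries miR-181a-5p ranked between 29 and 36 and miR-181b-5p between 40 and 43, while miR-181d-5p ranked 147 or 152 and miR-181c-5p between 217 and 228. The names beside miR-181a-5p were miR-183-5p above it, with 184995 counts, and miR-30d-5p below it, with 174485. miR-181b-5p stood between miR-20b-5p, with 112949 counts, and miR-128-1-5p, with 102761. In neither case was the order the same in all 4 libraries: miR-183-5p, for example, exceeded miR-181a-5p in replicates 1, 2 and 3 and was lower in replicate 4.

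Neighbouring members were compared as log2 ratios inside each library, with 1 count added, by a two-sided exact sign-flip permutation test. miR-181a-5p exceeded miR-181b-5p in 4 of 4 libraries, by ratios of 1.30, 1.64, 1.82 and 1.71 in replicates 1 to 4. The mean log2 ratio was 0.68 ± 0.21 (SD, n = 4; exact p = 0.125, the smallest that 4 libraries allow; Benjamini-Hochberg adjusted 0.375 over 3 pairs). The ratio was larger than its spread, but the design cannot reach a p below 0.05. miR-181b-5p exceeded miR-181d-5p 38.7-fold in replicate 2 and 42.9-fold in replicate 4, the libraries that list both (mean log2 ratio 5.35; exact permutation p = 0.5, the smallest for 2 libraries; adjusted 0.5). miR-181d-5p exceeded miR-181c-5p 8.23-fold in replicate 2 and 6.03-fold in replicate 4 (mean log2 ratio 2.80; exact permutation p = 0.5; adjusted 0.5).

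**Figure D2:**
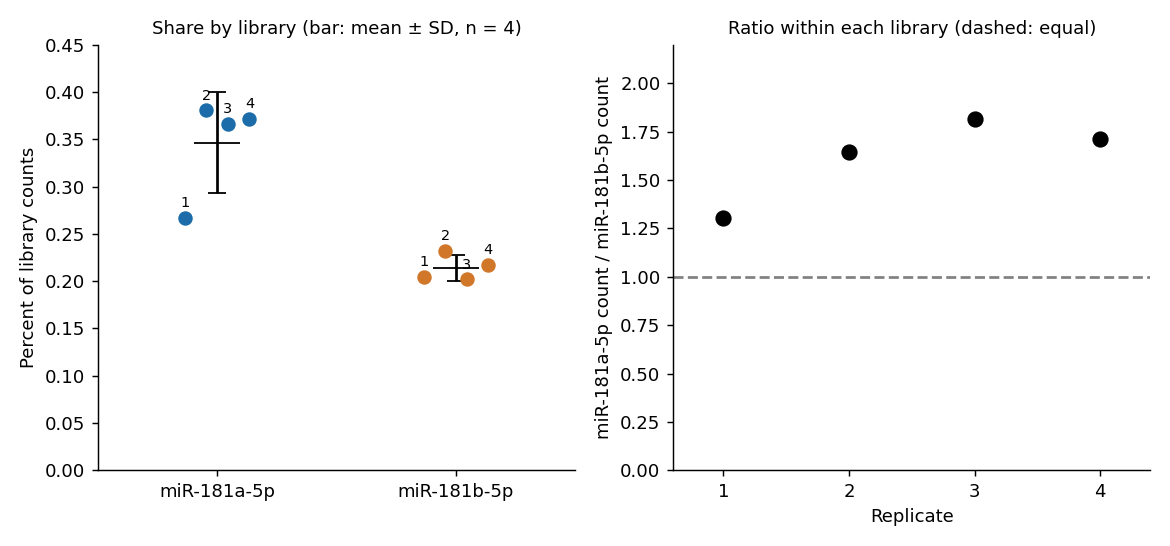
Left, the share of miR-181a-5p and miR-181b-5p in percent of library counts, 1 point per library numbered by replicate, with bars for the mean ± SD (n = 4). Right, the ratio of their counts in each library, which lies above 1 (dashed line) in all 4 and is lowest, 1.30, in replicate 1.

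The makeup of the family was most even in replicate 1. miR-181a-5p made up 56.6% of the family's counts in replicate 1 and 61.5%, 64.4% and 62.5% in replicates 2, 3 and 4, and miR-181b-5p 43.4%, 37.4%, 35.5% and 36.5%. miR-181d-5p made up 0.966% and 0.851% in replicates 2 and 4. miR-181c-5p stayed between 0.117% and 0.141% where it was listed.

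Grouped by locus, the names from chromosomes 1 and 9 outnumbered those from chromosome 19 by about 2 orders of magnitude. In replicate 2, miR-181a-5p and miR-181b-5p together had 80890.5 counts against 886 for miR-181c-5p and miR-181d-5p, a ratio of 91.3. In replicate 4 the sums were 75014.5 and 752, a ratio of 99.8. The mean log2 ratio was 6.57 ± 0.09 (SD, n = 2; exact permutation p = 0.5, the smallest for 2 libraries), with replicates 1 and 3 left out because of the blanks. Since the chromosome 1 and 9 loci have 4 hairpin genes and the chromosome 19 locus has 2, the counts were also divided by the number of hairpin genes of each name, which gave 5.57.

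The scarce name of each pair was a small share of the abundant name that is 1 base away. miR-181c-5p amounted to 0.191%, 0.212% and 0.226% of miR-181a-5p in replicates 2, 3 and 4. miR-181d-5p amounted to 2.58% of miR-181b-5p in replicate 2 and 2.33% in replicate 4. How the authors' counting assigned reads with a sequencing error or a trimmed end was not tested.

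On chromosome 19 the other miRNA genes within 50 kb of the miR-181 hairpins were MIR23A, MIR27A and MIR24-2. They lie on the opposite strand, between 38040 and 38516 bases from MIR181C or MIR181D. miR-23a-5p has a value in replicate 2 only. miR-27a-5p, with 8236, 10339 and 8450 counts in replicates 2, 3 and 4, exceeded miR-181c-5p 85.8-fold, 108-fold and 79.0-fold. miR-24-2-5p, with 95514 to 102949 counts in those libraries, exceeded it 893-fold to 1072-fold. Against miR-181d-5p, in replicates 2 and 4, the ratios were 10.4 and 13.1 for miR-27a-5p and 130 and 148 for miR-24-2-5p. The counts of miR-24-2-5p were within 2% of those of miR-24-1-5p, from another hairpin gene, and whether they are specific to MIR24-2 was not tested. The hairpins on chromosomes 1 and 9 had no miRNA gene within 50 kb other than their own partner.

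The family as a whole had 59093.5, 81776.5, 70310.5 and 75766.5 counts in replicates 1 to 4, or 0.563% ± 0.0647 of the library counts (SD, n = 4). It was set beside 3 other families whose names come from several loci. Each sum added the names listed in a library, so a blank counted as 0 in it. The miR-29 family held 0.535% ± 0.0509 and the miR-30 family 1.52% ± 0.0735 (SD, n = 4). The miR-23, miR-27 and miR-24 names together held 2.64% ± 0.586 (SD, n = 4). This last sum adds 2 miR-24 names whose counts were 1.02-fold apart in replicates 2, 3 and 4. In replicate 1 only 1 of them has a value. Whether both count the same reads was not tested. Which strand of the hairpin each name counts was not tested, so the sums need not compare the active strand of each family. Against miR-29 the miR-181 family was lower in replicates 1 and 3 and higher in replicates 2 and 4, with log2 ratios from -0.15 to 0.28 and a mean of 0.07 ± 0.23 (SD, n = 4; two-sided exact sign-flip permutation p = 0.5, adjusted 0.5 over 3 families). That mean lay well within the SD of the 4 ratios, and it turned to -0.92 (exact permutation p = 0.125) when counts were divided by the hairpin genes of each name. Against miR-30 the mean log2 ratio was -1.44 ± 0.14 and against miR-23, miR-27 and miR-24 it was -2.21 ± 0.18 (SD, n = 4), and the miR-181 family was lower in 4 of 4 libraries in each (exact permutation p = 0.125 for each, the smallest possible; adjusted 0.188). Divided by hairpin genes these were -2.34 and -3.20, where both miR-24 names stayed undivided because each has 1 hairpin gene. With only names that have a value in every library, a setting chosen after seeing the data, they were -1.45 and -1.74.

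The families differed in how evenly their names shared the counts. miR-29a-5p held 0.468% and the other miR-29 names at most 0.0293%. The miR-30 names ran from 0.823% for miR-30a-5p down to 0.0243% for miR-30b-5p, a narrower range than that from miR-181a-5p to miR-181c-5p. The sum for miR-23, miR-27 and miR-24 rests on names with blanks, and it was highest, 3.42%, in replicate 2, which alone lists miR-23a-5p. Within it, miR-24-1-5p and miR-24-2-5p, whose hairpins share the mature miR-24-3p in RefSeq but have 5p names of their own, were 1.02-fold apart in each of the 3 libraries that list both. Which strand the 5p names of the table count was not tested, for miR-181 or for the other families.

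**Figure D3:**
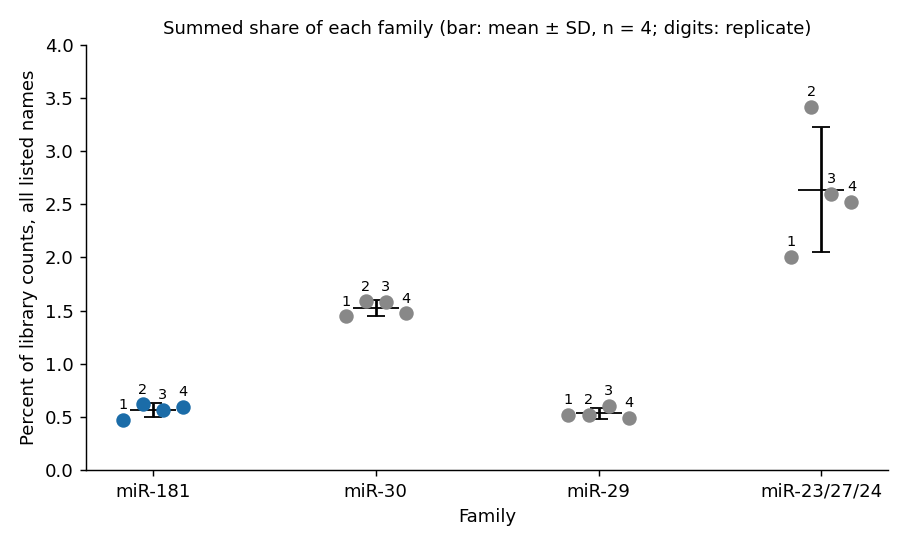
Summed share of each family in percent of library counts, 1 point per library numbered by replicate, with bars for the mean ± SD (n = 4). The miR-181 family (0.563%) overlaps the miR-29 family (0.535%) and lies below the miR-30 family (1.52%) and the miR-23/27/24 names (2.64%) in every library. The miR-23/27/24 sum adds miR-24 names of near-equal counts, and replicate 1 lists only 1 of them.

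miR-181a is also abundant in lymphocytes, so the miRNAs of white blood cells were read beside it. The list has 4 miRNAs, of which 3 are names in the table. miR-155-5p lay between 0.296% and 0.350% of the counts, close to miR-181a-5p. miR-150-5p had 79 counts summed over the 4 libraries, and miR-142-5p had 3, in replicate 1 only. The list summed to between 0.296% and 0.350% of a library, nearly all of it miR-155-5p, and its part in the level of miR-181a-5p was not tested. The erythroid name miR-451a had no value in any library, and the erythroid list summed to at most 0.0217% of a library. The lists of endothelium, liver, epithelium, neuron, muscle and oligodendrocyte summed to at most 0.0106%, 0.00358%, 0.00344%, 0.00181%, 0.000391% and 0.000318%.

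The spread between libraries was taken as the coefficient of variation (CV, the SD in percent of the mean) of upper-quartile normalized counts. Of the 4 members, miR-181a-5p and miR-181b-5p passed a minimum of 10 counts in each library, as 280 miRNAs did, and the others were not because of their blanks. The CV of miR-181a-5p was 17.5% and that of miR-181b-5p 8.08%, against a median of 19.9% over the 280. Over the names within 2-fold of each member's mean count the median was 13.9% (23 names) for miR-181a-5p, which lay above it, and 15.2% (28 names) for miR-181b-5p, which lay below it. Lower values were found for 40.7% of the 280 names in the former case and 8.93% in the latter. Counting alone would give about 0.476% and 0.606%. The CV of miR-181a-5p rested on replicate 1: without it the value was 4.56%, against 19.1% to 21.5% without any other replicate. These values over 3 libraries cannot be set against the medians above, and the other names were not tested without replicate 1. Upper-quartile factors over every name, with blanks as 0, gave 23.9% for miR-181a-5p and 13.2% for miR-181b-5p, a setting chosen after seeing the data. For miR-181c-5p the CV over 3 libraries was 11.9% where counting alone gives about 10.0%.

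**Figure D4:**
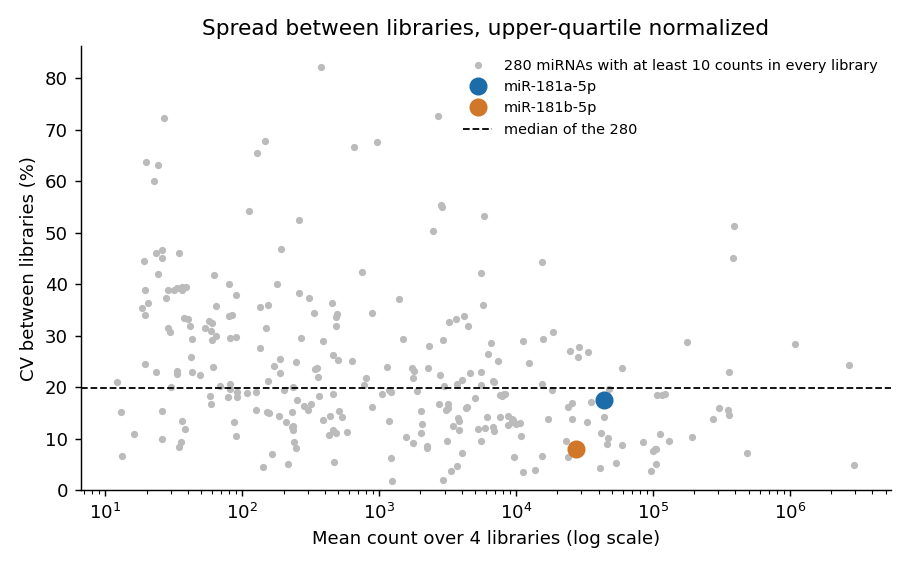
CV between the 4 libraries (percent, upper-quartile normalized counts) against mean count (log scale) for the 280 miRNAs that reached 10 counts in each library. miR-181b-5p (8.08%) lies well under the median of 19.9% (dashed line), and miR-181a-5p (17.5%) lies just under it but above the 13.9% of names with like counts.

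A library standing apart from the others was looked for with Dixon's ratio, the gap of the outermost library divided by the range, on the shares. It passed the 95% critical value for miR-181a-5p, at 0.874 with replicate 1 the lowest, and not for miR-181b-5p, at 0.495. Among the 280 miRNAs 11.1% passed, so 1 of 2 members is not read as a result about the family. Of the 31 miRNAs that passed, replicate 1 was the highest library for 17 and the lowest for 4, and miR-181a-5p is among the 4. Its log2 share in replicate 1 was 0.48 under the mean of the other libraries, and 18.2% of the 280 miRNAs lay further down there. With upper-quartile, TMM and DESeq2 factors in place of the library total, under which 14.3%, 13.6% and 12.9% of the 280 passed, its ratio was 0.757, 0.658 and 0.622 and did not pass. The log2 share of miR-181b-5p in replicate 1 was 0.08 under the mean of the other libraries, with 47.1% of the miRNAs below it.

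Lastly, the names whose pattern over the 4 libraries was most like that of each abundant member were listed, by the root mean square difference of log2 normalized counts after each name's own mean was removed. For miR-181a-5p they were miR-760, at 0.03, miR-423-5p, at 0.05, and miR-487b-5p, at 0.06, against a median of 0.30 over the other 279 names. miR-760 was scarce, with 148 counts in replicate 1 against 204 to 225 elsewhere. miR-423-5p had 11065, 17232, 16285 and 17181 counts, again with replicate 1 lowest. For miR-181b-5p they were miR-191-5p, at 0.02, miR-597-5p, at 0.06, and miR-365a-5p, at 0.07, against a median of 0.26. miR-191-5p had 94258, 110417, 92546 and 102186 counts, with replicates 2 and 4 high and 1 and 3 low, as in miR-181b-5p. The abundant members were not each other's nearest: their difference was 0.18, which put miR-181b-5p in place 57 for miR-181a-5p and miR-181a-5p in place 71 for miR-181b-5p. With 4 libraries, near patterns are a description only.

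**Figure D5:**
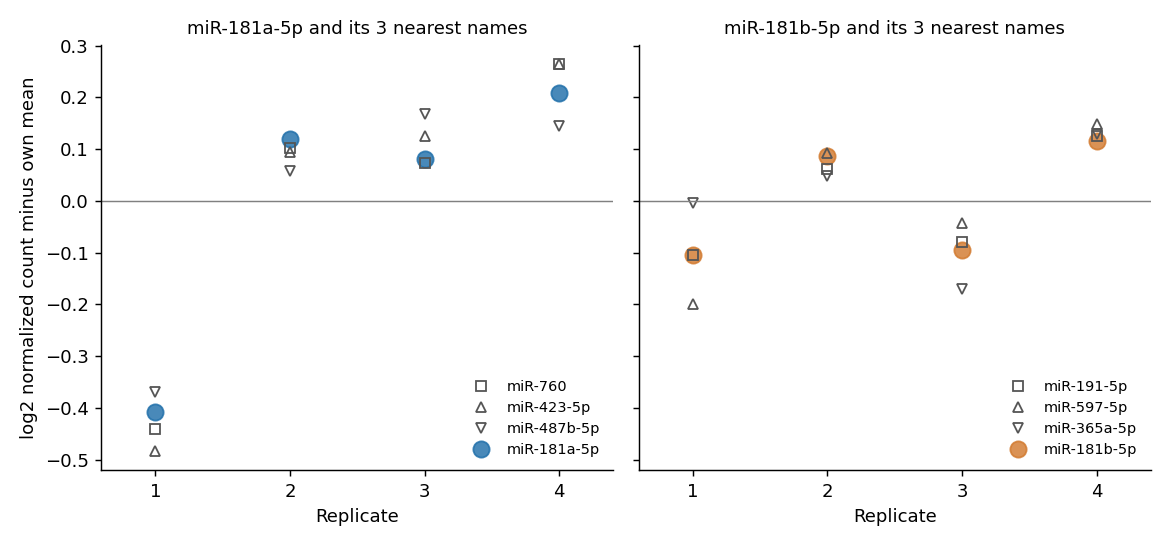
log2 normalized count minus the name's own mean, by replicate, for miR-181a-5p (left) and miR-181b-5p (right) with the 3 names of most similar pattern for each. miR-181a-5p is lowest in replicate 1, at -0.41, and between 0.08 and 0.21 in the others, whereas miR-181b-5p stays between -0.11 and 0.11.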

How the data were processed

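miRNA sequencing of 4 biological replicates of control U-251 cells (1 group) was analysed. The authors deposited unnormalized counts per miRNA name, handled here as estimated counts because 40 names have fractional values. Adaptor trimming with Trimmomatic, removal of long reads, mapping to hg38 with Bowtie and counting with miRDeep2 were the authors' steps. The annotation release and the step behind fractional values are not given in the sources used here. The labels describe capture of polyadenylated mRNA, whereas the study's methods name a miRNA library kit.

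Shares, ratios, Dixon's ratios and exact sign-flip tests came from scripts in Python 3.11.15 with pandas 2.3.3 and numpy 2.4.6. Wilson intervals (95%) came from scipy 1.17.1 and plots from matplotlib 3.10.9. edgeR 4.0.16 gave upper-quartile and TMM factors, and DESeq2 1.42.0 size factors, on rounded counts of the 280 names with at least 10 counts in every library. Over these names the biological coefficient of variation of edgeR was 24.7%, with tagwise values of 19.9% for miR-181a-5p and 17.1% for miR-181b-5p. No test between conditions was run. No pair of libraries agreed within sampling noise (chi-square per degree of freedom at least 498), so none was taken as a library entered more than once. This does not test whether the RNA came from separate cultures, which rests on the labels.

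The tests were planned over all 4 libraries. Because blanks also fall on abundant names, a blank was taken as no value and ratios used the libraries that list both names. Members, lists and tests were chosen with earlier results of these data known. Named miRNAs were the members, names with their seed, miRNA genes within 50 kb, the families miR-30, miR-29 and miR-23/27/24, cell type markers, the 3 names nearest in pattern and the neighbours by summed count. miR-24-1-5p and miR-23a-5p fall under the third family. Steps were tested on simulated data. Mature sequences were taken from RefSeq (GRCh38.p14) and hairpin positions from GENCODE release 44. Coordinates count from 1. Other experiments of the study were not analysed here.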

Additional observations from a re-analysis of the deposited data

Results flagged for a closer look

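The share of miR-181a-5p had 1 library far from the others. Replicate 1 held 0.267% against 0.366% to 0.381% in the rest, and the gap divided by the range, 0.874, lay above Dixon's critical value at 95% for 4 samples. Among the 280 miRNAs with enough counts, 11.1% passed in the same way, against about 1 in 20 by chance. Of 7 values tested here, which share counts, 1 passed. The other values were the share of miR-181b-5p, at 0.495, the summed share of the family, at 0.661, the log2 ratio of miR-181a-5p to miR-181b-5p, at 0.700, and the log2 ratios of the family to miR-30, miR-29 and miR-23/27/24, at 0.453, 0.129 and 0.722. With upper-quartile, TMM or DESeq2 factors the ratio of miR-181a-5p did not pass.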

How the results depend on the processing

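Shares of the 4 members and of the family moved by less than their SD under upper-quartile, TMM and DESeq2 scaling and with only names that have a value in every library as the denominator. With a blank counted as 0, a setting chosen after seeing the data, miR-181d-5p fell to 0.00276% and miR-181c-5p to 0.000586%. The same setting turned the mean log2 ratio of miR-181d-5p to miR-181c-5p from 2.80 to -0.25, because replicate 3 lists only miR-181c-5p, and raised the ratio of miR-181b-5p to miR-181d-5p from 5.35 to 9.99 and that of the chromosome 1 and 9 names to the chromosome 19 names from 6.57 to 9.62. With the names listed in each library the last was 7.55 over 3 libraries, also a setting chosen after seeing the data. Divided by hairpin genes, miR-181b-5p to miR-181d-5p was 4.35, and the family's log2 ratios to miR-30 and miR-23/27/24 were -2.34 and -3.20 in place of -1.44 and -2.21. The ratio to miR-29 turned from 0.07 to -0.92 (exact sign-flip permutation p = 0.125), which follows from the 2 hairpin genes of each abundant member. With only names that have a value in every library the log2 ratios to miR-30, miR-29 and miR-23/27/24 were -1.45, 0.06 and -1.74. With hairpin-numbered names, such as miR-24-1-5p and miR-24-2-5p, counted once they were -1.44, 0.14 and -1.86. Both of these settings were chosen after seeing the data. The CV of miR-181b-5p, 8.08%, was 7.31% with TMM, 6.37% with library totals and 13.2% with upper-quartile factors over every name. That of miR-181a-5p, 17.5%, was 15.2%, 15.4% and 23.9% in the same order. The number of miRNAs with a library standing apart, 31, lay between 28 and 40 under the other settings. The ratio of miR-181a-5p, 0.874, was 0.892 on the log2 scale, and 0.757, 0.658 and 0.622 with upper-quartile, TMM and DESeq2 factors, where it no longer passed. The 3 nearest names of each abundant member were the same with TMM. Leaving out 1 replicate gave CVs of 4.56% to 21.5% for miR-181a-5p, with 4.56% without replicate 1, and of 7.63% to 8.82% for miR-181b-5p, and log2 ratios of 0.62 to 0.78 between them. No paired analysis was possible because there is no second group. A sign-flip test over 4 libraries cannot fall below 0.125, so a p here says nothing about stability, and for the changes with no stated reason the cause was not tested.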

Other observations

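Values that are not whole occur in miR-181a-5p in 1 library and in miR-181b-5p in 3, and all of them end in 0.5. Of the 40 such names in the table, 37 have a RefSeq mature sequence of that name, and of these 22 have more than 1 hairpin gene there, as these members do, and 15 have 1. Of the 45 names with a value and more than 1 hairpin gene, 23 have only whole values. No value of miR-181c-5p or miR-181d-5p, with 1 hairpin gene each, was other than whole.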
